A study of Mus musculus with 18 samples.

Results

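In mouse spleen sections, 956 accessible chromatin regions had a higher CPM in every T cell patch library than in any B cell patch library, among them regions at Tcf7, Lef1, Bcl11b, Themis, the CD3 genes, Cd8a, Cd8b1, Cd5 and Cd28. They were picked from 27392 nuclear regions of a table of 27396 (4 are mitochondrial) by 2 limits: the lowest of the 5 T patch libraries lay above the highest of the 5 B patch libraries, and the mean in T patches was 10 CPM or more. CPM are counts per 1000000 nuclear counts of a library, so mitochondrial counts are left out of the total. By construction 3.49% of nuclear regions met both limits and 3.56% met the first. The patch values therefore chose the regions and are given below as a description, and nothing is supported with them. The libraries of 100 nuclei were not used for the choice.

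The assay was ATAC-seq, in which a transposase cuts open DNA and reads pile up where chromatin is accessible. T cells and B cells were immunostained on fresh frozen spleen sections of C57BL/6J WT mice, the DNA was tagmented in place, and nuclei were cut out by laser. The groups were T patches (n = 5), B patches (n = 5), T cells of 100 single nuclei (n = 4) and B cells of 100 single nuclei (n = 4). A patch library joined 10 tissue areas of roughly 100 nuclei each, near 1000 nuclei in all. All animals carried the same genotype, no treatment is named, and nothing used here gives the stained markers, the ages or how many mice were taken. The libraries of a group are technical replicates by the labels, so a spread or a p-value measures these libraries and not mice. A patch is a piece of tissue and can hold other cells than the stained ones. Fewer cells of a type and less accessibility per cell cannot be told apart.

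Totals ran between 2193837 and 7343204 counts in T patches, 2713677 and 6553535 in B patches, 319481 and 1076765 in T libraries of 100 nuclei, and 547333 and 720555 in B libraries of 100 nuclei. Mitochondrial regions took between 16.1% and 45.8% of a library. Some libraries stood apart in breadth. T patch library 2 had reads in 74.2% of nuclear regions, against 91.3% to 96.4% in the other 4 T patches. B patch library 2 had reads in 75.4%, against 90.1% to 98.1% in the other 4 B patches. Reads covered 14.4% and 12.0% of nuclear regions in T libraries 3 and 4 of 100 nuclei, against 27.8% to 40.0% in the other 6 libraries of that size. A count of 0 allowed up to 0.489 to 1.74 CPM in a T patch, 0.563 to 1.61 CPM in a B patch, 4.19 to 12.4 CPM in a T library of 100 nuclei and 7.50 to 9.17 CPM in a B library of that size (3 counts per library, counting error only).

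T cells are made in the thymus, where TCF1 (the product of Tcf7), GATA3 and BCL11B set and hold the lineage. They read antigen through a receptor whose signal runs by way of the CD3 chains, the coreceptors CD4 and CD8, kinases such as LCK and adaptors such as SLP-76 (the product of Lcp2). In the spleen they gather in the T zone of the white pulp, beside the B cell follicles. Much of what separates lymphocyte types in open chromatin is known to lie in enhancers, away from gene starts.

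Short stretches of the regions that lay on gene starts could be read from RefSeq promoter windows of build GRCm38.p6, each covering 250 bases before to 50 after a gene start. The 5 shown were picked from those that sit under a region of the set at a T cell gene and hold letters of a motif bound by a lymphocyte factor. They are the windows of Cd3g (a CD3 chain, chr9:44980382-44980681, minus strand), Cd8a (a coreceptor chain, chr6:71373177-71373476, plus strand), Cd27 (a costimulatory receptor, chr6:125236978-125237277, minus strand), Txk (a kinase of the TEC family, chr5:72752728-72753027, minus strand) and Prf1 (perforin, chr10:61297586-61297885, plus strand). Capitals mark matches on either strand to the TCF/LEF letters CTTTGA, the RUNX letters TGTGGT, the ETS letters ACAGGAA, the GATA letters AGATAA and the E-box letters CAGCTG.
Cd3g: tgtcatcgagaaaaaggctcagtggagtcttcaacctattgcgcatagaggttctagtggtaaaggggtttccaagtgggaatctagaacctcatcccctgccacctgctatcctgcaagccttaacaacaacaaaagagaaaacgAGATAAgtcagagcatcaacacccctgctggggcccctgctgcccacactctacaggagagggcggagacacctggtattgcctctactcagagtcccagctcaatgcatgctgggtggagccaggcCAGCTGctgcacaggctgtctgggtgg
Cd8a: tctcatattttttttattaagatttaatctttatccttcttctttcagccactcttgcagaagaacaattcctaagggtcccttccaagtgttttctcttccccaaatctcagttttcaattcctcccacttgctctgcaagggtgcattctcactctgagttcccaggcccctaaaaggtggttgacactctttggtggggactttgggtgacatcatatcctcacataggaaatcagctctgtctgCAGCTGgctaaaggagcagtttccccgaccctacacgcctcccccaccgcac
Cd27: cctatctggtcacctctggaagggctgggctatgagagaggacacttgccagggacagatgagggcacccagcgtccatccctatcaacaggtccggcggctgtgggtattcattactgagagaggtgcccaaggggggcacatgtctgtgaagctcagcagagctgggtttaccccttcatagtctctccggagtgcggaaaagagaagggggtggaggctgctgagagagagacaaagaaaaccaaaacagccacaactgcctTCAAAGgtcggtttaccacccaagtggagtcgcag
Txk: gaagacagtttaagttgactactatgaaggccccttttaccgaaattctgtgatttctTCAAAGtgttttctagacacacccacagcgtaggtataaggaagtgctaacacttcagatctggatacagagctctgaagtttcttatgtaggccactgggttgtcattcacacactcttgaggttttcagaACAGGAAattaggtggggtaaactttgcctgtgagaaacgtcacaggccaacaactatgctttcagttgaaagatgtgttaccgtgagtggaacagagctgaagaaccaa
Prf1: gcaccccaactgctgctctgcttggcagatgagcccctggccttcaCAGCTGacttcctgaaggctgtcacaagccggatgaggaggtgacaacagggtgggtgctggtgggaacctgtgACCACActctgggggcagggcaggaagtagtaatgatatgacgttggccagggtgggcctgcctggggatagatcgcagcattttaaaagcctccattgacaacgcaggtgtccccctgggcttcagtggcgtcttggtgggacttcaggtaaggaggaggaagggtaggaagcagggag

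The Cd3g window held 1 GATA match and an E-box, which reads the same on both strands. The Cd8a window held an E-box, and the Cd27 window 1 TCF/LEF match. Txk held 1 TCF/LEF and 1 ETS match, and Prf1 an E-box and 1 RUNX match. Of windows at T cell genes that are not shown, that of Il18r1 held 1 RUNX match, while those of Cd5 and Themis held none of the marked letters. Over all 154 promoter windows that regions of the set covered by at least 100 bases, the same letters were counted and set beside the 9364 windows under any nuclear region. TCF/LEF letters were in 11.7% of the windows of the set and 10.6% of the windows of all, RUNX letters in 14.9% and 11.7%, ETS letters in 6.49% and 7.20%, and GATA letters in 3.90% and 4.73%. Under the regions fully higher in B patches TCF/LEF letters were in 8.21% of the windows, fewer than in the set. RUNX letters were there in 16.4%, ETS letters in 11.9% and GATA letters in 8.21%, each more than in the set. The E-box was in 21.4% of the windows of the set, against 20.9% of the 134 windows under the regions fully higher in B patches and 13.8% of the windows under any nuclear region. The EBF motif and the OCT letters (ATGCAAAT), motifs of factors prominent in B cells, were each in 0.649% (1 window) of the windows of the set and each in 4.48% of the windows under the regions higher in B patches, while under any nuclear region they were in 0.929% and 1.38% of the windows. A match is a description of letters and not a binding site.

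As a whole the 956 regions took 4.26, 5.67, 4.01, 4.66 and 3.96% of the nuclear counts of the 5 T patch libraries, against 1.29, 0.975, 1.17, 1.16 and 1.31% in the 5 B patch libraries. The means were 4.51 ± 0.70% in T patches and 1.18 ± 0.13% in B patches (SD, n = 5 each), values that the choice of regions fixed. The mean level of a region in T patches ranged from 10.4 to 271 CPM with a median of 37.9 CPM, and its mean in B patches ranged from 0 to 176 CPM with a median of 5.88 CPM. Few of the regions were empty in B patches, since 7 of the 956 held no read in any of the 5 libraries. The 5 B patch libraries had reads in 87.8, 53.2, 82.5, 75.3 and 95.5% of the set.

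Libraries of 100 nuclei, which played no part in the choice, kept the 2 cell types apart on this set. The regions took 4.13, 3.95, 4.06 and 4.72% of nuclear counts in the 4 T libraries, against 1.59, 1.18, 1.65 and 1.22% in the 4 B libraries. The means were 4.21 ± 0.35% in T and 1.41 ± 0.25% in B (SD, n = 4 each), and no T library overlapped a B library. The mirror set, 1106 regions that were fully higher in B patches with a mean there of 10 CPM or more, took 2.2, 2.33, 2.38 and 2.52% in the T libraries and 5.10, 6.24, 5.79 and 6.22% in the B libraries. Without the 10 regions of the set that held the most counts the difference between T and B was 2.61 percentage points, against 2.80 with them, and it was 2.62 without T libraries 3 and 4. The widest Wilson interval of a single library's share (95%, counting error only) ran from 4.64 to 4.81% in T library 4.

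**Figure D1:**
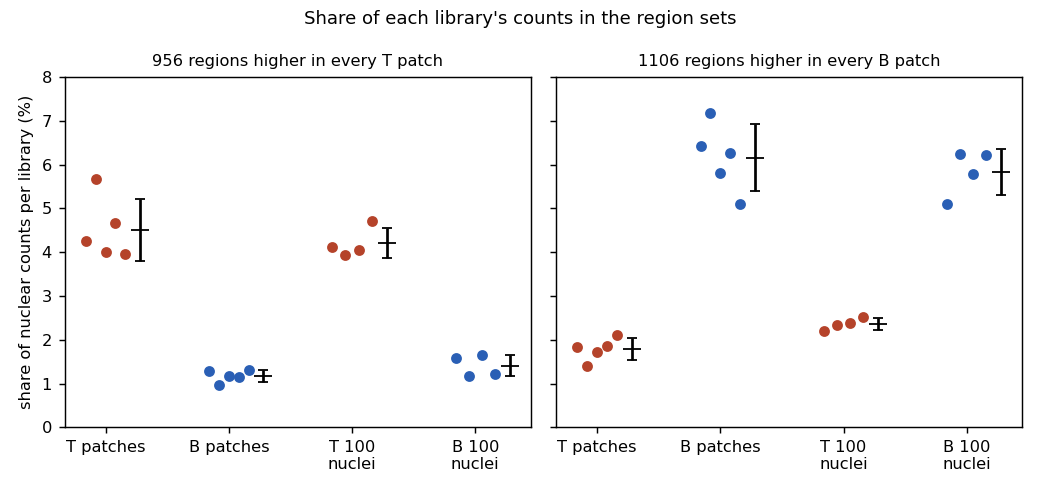
Share of nuclear counts per library (y axis, percent) in the 956 regions fully higher in T patches (left) and the 1106 regions fully higher in B patches (right), for T patches, B patches, T 100 nuclei and B 100 nuclei. Each point is a library and the bars beside them are means ± SD; at 100 nuclei the T libraries lie between 3.95 and 4.72% and the B libraries between 1.18 and 1.65% on the left.

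Breadth did not separate the cell types in the same way. The number of regions of the set with at least 1 read was 503, 470, 174 and 157 in the 4 T libraries of 100 nuclei, against 191, 147, 160 and 206 in the 4 B libraries. T libraries 1 and 2 lay above all B libraries, and T libraries 3 and 4 lay among them. Where T libraries 3 and 4 had reads they had many: the median count of a region of the set with reads was 75.5 and 65 there, 50 and 49 in T libraries 1 and 2, and 16 to 33 in the B libraries. Reads carried no stated molecular identifiers, so these are not independent molecules.

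Genes of known T cell function were assigned by position: a region took the gene with a start within 1 kb or the gene it lay in or, failing that, the nearest gene within 50 kb. Of 407 regions at genes of 6 T cell lists, 80 belonged to the set (19.7%), at 43 genes. Among the defining T cell markers, 13 of 18 genes had a region in the set: Cd3e, Cd3d, Cd3g, Cd8a, Cd8b1, Cd5, Cd6, Cd2, Cd28, Tcf7, Lef1, Bcl11b and Themis. Cd247, Lck, Il7r and Ccr7 had regions but none in the set, and Cd4 had no assigned region. Ccr7 had 1 region in the mirror set. Of 12 B cell markers 0 had a region in the set, while 11 had a region in the mirror set. Since patch values chose the set, these counts check its label and are no test.

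Transcription factors of the T lineage had more regions in the set than any of the other 5 T cell lists. The list of 14 genes had 81 regions, 21 of them in the set (25.9%), at Bcl11b, Gata3, Lef1, Runx1, Runx3, Satb1, Tcf7, Themis and Tox. The list also had 4 regions in the mirror set. Over its tested regions the median log2 fold change, T over B patches, was 0.89, against 0.03 over all regions tested. At 100 nuclei 36 of its regions had a higher mean in T and 35 a higher mean in B, while of the 21 in the set 14 were higher in T, 6 lower and 1 without reads. Over all nuclear regions with reads at 100 nuclei 9795 had a higher mean in T and 12423 a lower one (44.1% higher). That is the level to read this list and the later ones against.

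Tcf7, whose product TCF1 is needed from the first steps of T cell development, had 8 of its 9 regions in the set, more than any other gene. Summed, they held 368, 399, 457, 490.5 and 432 CPM in T patches, against 51.1, 19.3, 74.4, 49.8 and 77.7 CPM in B patches. At 100 nuclei the sums were 787, 590.0, 976 and 1307 CPM in T libraries, against 36.2, 92.5, 307 and 79.5 CPM in B libraries, and the groups did not overlap. One of the 8 lay 0.386 kb before the gene start, the 2 inside the gene lay 7.01 and 13.9 kb after the start, and 5 lay 16.7 to 35.7 kb before it. The region 16.7 kb upstream (chr11:52299516-52299983) had the highest level of the 8 by counts per region. It held 80.1, 77.8, 122, 134 and 139 CPM in T patches, against 16.3, 13.9, 42.5, 9.03 and 17.8 CPM in B patches. In the libraries of 100 nuclei it held 165, 301, 500.0 and 761 CPM in T, against 36.2, 0, 0 and 0 CPM in B. All 4 T libraries exceeded all 4 B libraries at this region, and edgeR's p was 0.0255 unadjusted and 0.356 after Benjamini-Hochberg adjustment.

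**Figure D2:**
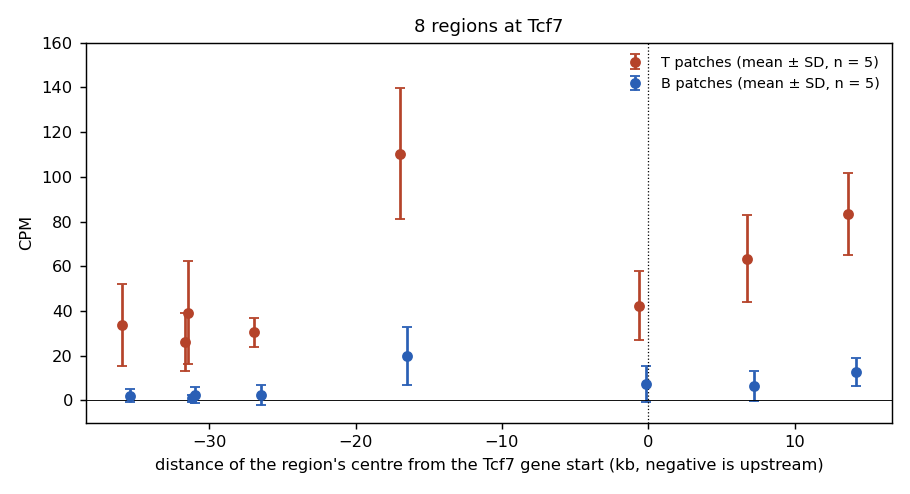
CPM (y axis, mean ± SD of 5 libraries, T patches and B patches) of the 8 regions at Tcf7 against the distance of their centres from the gene start (x axis, kb; negative is upstream, and the 2 groups are drawn slightly apart). T patches lie above B patches at each region, highest 16.7 kb upstream.

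Lef1, the close relative of Tcf7, had 2 regions in the set, 1.32 and 43.8 kb after its start. The first (chr3:131157440-131157779) held 67.3, 161, 68.8, 92.5 and 82.2 CPM in T patches, against 6.76, 29.5, 14.2, 6.99 and 12.4 CPM in B patches, with no read in the 4 B libraries of 100 nuclei and 80.9, 22.4, 169.9 and 0 CPM in the 4 T libraries. A further region of the set lay 163 kb from Lef1 with no gene within 50 kb (chr3:130947221-130947618). It held 70.3, 128, 66.97, 143 and 50.9 CPM in T patches, against 6.39, 2.68, 6.86, 19.5 and 5.79 CPM in B patches. Gata3, a factor of the T lineage and of type 2 helper cells, went less clearly. Its region near the start (chr2:9879510-9879801) held 58.4, 173, 124, 85.4 and 98.7 CPM in T patches, against 26.1, 49.4, 33.2, 48.3 and 29.97 CPM in B patches, but at 100 nuclei the T libraries had no read there and 1 B library had 49.2 CPM. At Themis, a gene of thymocyte selection, a region over the start (chr10:28668242-28668652) held 114, 149, 60.5, 97.6 and 73.5 CPM in T patches, against 11.5, 20.4, 3.17, 8.15 and 13.02 CPM in B patches. It held 72.2, 90.9, 0 and 169.6 CPM in T libraries of 100 nuclei, against 0, 49.98, 0 and 0 CPM in B libraries. Bcl11b had 1 weak region inside the gene (chr12:107993165-107993311), with 28.2, 20.9, 23.95, 33.6 and 33.8 CPM in T patches, against 4.51, 14.5, 5.28, 0 and 9.51 CPM in B patches.

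A run of 5 regions of the set lay in a gene-poor stretch 726 to 792 kb from Bcl11b on chromosome 12, 4 of them assigned to the predicted gene Gm52008 and 1 with no gene within 50 kb. The 4 summed to 195, 196, 172, 209 and 178 CPM in T patches, against 35.5, 7.51, 28.8, 35.2 and 25.2 CPM in B patches. The one without a gene (chr12:107184530-107184848) held 35.8, 53.4, 33.9, 68.3 and 36.1 CPM in T patches, against 1.69, 1.61, 0.264, 1.46 and 2.69 CPM in B patches, one of the widest gaps of the set. At 100 nuclei only T library 2 had reads in it, with 25.2 CPM. Regions of the set without a gene within 50 kb numbered 94, of which 22 (23.4%) lay within 1 Mb of a T list gene. The same share was 9.86% of all 2151 nuclear regions without a gene and 8.16% of the 147 in the mirror set. Of the 22, 4 lay 57.7 to 171 kb from Ets1, the gene of an ETS factor abundant in resting lymphocytes. The strongest of them (chr9:32926284-32926638) held 64.7, 152, 80.01, 89.5 and 85.2 CPM in T patches, against 13.7, 5.37, 26.1, 11.6 and 11.99 CPM in B patches. At 100 nuclei it held 126, 189, 0 and 368 CPM in T libraries, while no B library had a read. Another lay 101 kb from S1pr1 (chr3:115815593-115815963) and held 96.9, 123, 87.5, 139 and 86.6 CPM in T patches, against 8.83, 15.6, 19.00, 12.5 and 13.8 CPM in B patches. At 100 nuclei it held 383, 236, 299 and 298 CPM in T libraries, against 0, 0, 25.1 and 0 CPM in B libraries, one of the few regions whose groups did not overlap there. One region lay within the T cell receptor beta locus (chr6:41118320-41118506) and held 32.5, 74.3, 17.1, 39.4 and 41.4 CPM in T patches, against 0.188, 0, 0, 0 and 1.65 CPM in B patches.

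The receptor itself and its coreceptors had the highest share of regions in the set. Of 32 regions at genes of this list, 14 belonged to it (43.8%), at Cd2, Cd3d, Cd3e, Cd3g, Cd5, Cd6, Cd8a, Cd8b1 and Thy1. The list's median log2 fold change in patches was 1.99. At 100 nuclei 19 of its regions had a higher mean in T and 6 a higher mean in B.

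The 3 CD3 genes lie side by side on chromosome 9, and each had 1 region in the set. The region over the Cd3g start held 67.3, 73.7, 114, 53.5 and 79.4 CPM in T patches, against 11.5, 24.7, 6.07, 0 and 16.9 CPM in B patches. The region inside Cd3d (chr9:44986435-44986946) held 86.7, 149, 75.1, 111 and 75.7 CPM in T patches, against 51.7, 32.2, 58.8, 51.8 and 32.4 CPM in B patches. At Cd3e the region 0.226 kb before the start was weaker, with 21.7, 24.4, 10.4, 18.8 and 8.10 CPM in T patches, against 8.08, 0, 0, 0.291 and 3.93 CPM in B patches. It was one of the 3 closest to the limit, with a lowest T library of 8.10 CPM and a highest B library of 8.08 CPM. At 100 nuclei these regions were read in at most 2 of the 4 T libraries, and the Cd3d region was also read in 3 of the 4 B libraries, with 131, 81.1, 0 and 0 CPM in T and 85.4, 4.998, 0 and 76.4 CPM in B.

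Both chains of CD8 had a region in the set. The one over the Cd8a start held 21.01, 74.9, 34.5, 48.4 and 66.8 CPM in T patches, against 8.08, 19.9, 8.71, 0.874 and 3.93 CPM in B patches. The one inside Cd8b1 (chr6:71322511-71322876) held 61.4, 133, 54.1, 66.6 and 51.7 CPM in T patches, against 17.3, 34.9, 9.50, 4.66 and 7.85 CPM in B patches. At 100 nuclei both had reads in T libraries 1 and 2 and in none of the 4 B libraries. Cd5, a receptor that dampens antigen receptor signals and is also found on some B cells, had a region over its start and one 8.90 kb upstream. The upstream one (chr19:10747630-10748126) held 103, 32.5, 68.3, 197 and 92.5 CPM in T patches, against 24.98, 10.7, 27.4, 23.6 and 21.7 CPM in B patches. Thy1, a surface glycoprotein that marks mouse T cells, had all 5 of its regions in the set, summing to 174, 289, 129, 175 and 169.9 CPM in T patches, against 26.7, 18.8, 15.04, 10.8 and 12.6 CPM in B patches. At 100 nuclei its sums were 49.1, 141, 464 and 0 CPM in T libraries and 0 CPM in all 4 B libraries.

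**Figure D3:**
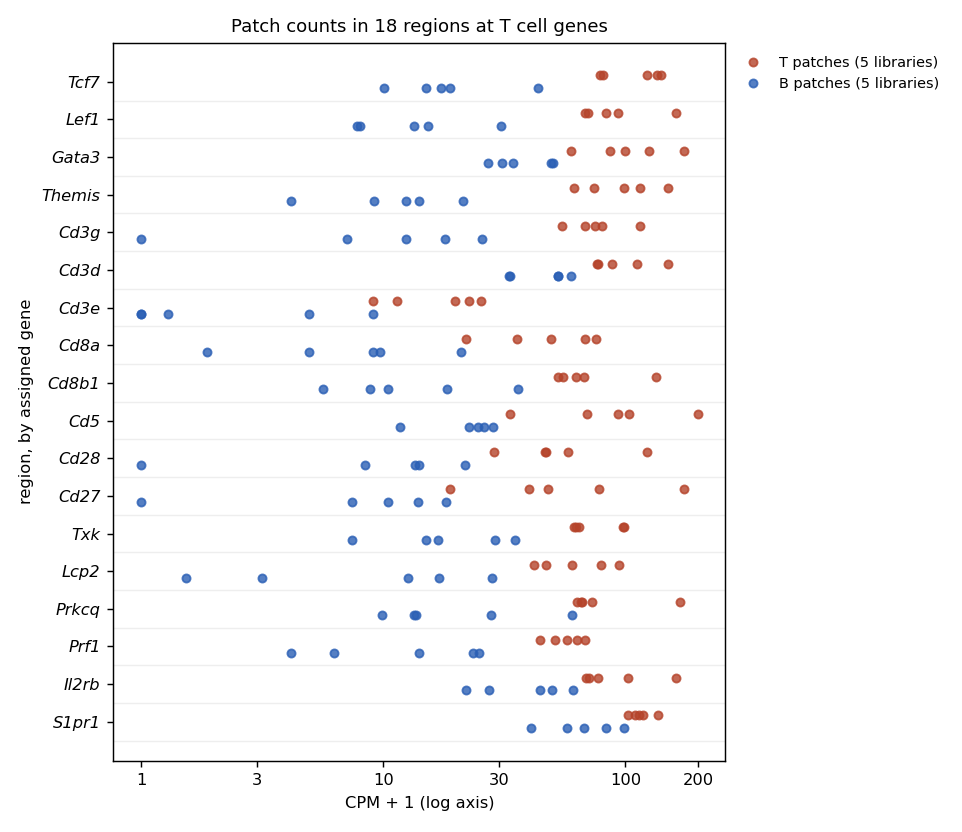
CPM + 1 (x axis, log scale) of 18 regions at T cell genes (y axis, the region of the set with the highest T patch mean for each gene) in 5 T patch and 5 B patch libraries, a point each. T patch points lie to the right of B patch points in each row, as the choice of regions requires. The gap is narrow for S1pr1, Cd3e, Cd27, Prkcq and Cd8a.

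Costimulatory and checkpoint receptors had 9 of 46 regions in the set (19.6%), at Cd226, Cd27, Cd28, Cd40lg and Cd96, and 3 in the mirror set. The list's median log2 fold change in patches was 0.50, and at 100 nuclei 23 of its regions had a higher mean in T and 18 a lower one. Cd28, the main costimulatory receptor of T cells, had 2 regions inside the gene. The stronger (chr1:60746279-60746531) held 27.6, 122, 45.8, 56.9 and 45.6 CPM in T patches, against 12.6, 0, 7.39, 20.7 and 13.02 CPM in B patches. T patch library 2 was the highest there, as it was at the Cd27 start, which held 39.1, 174, 17.9, 76.7 and 46.95 CPM in T patches, against 12.96, 0, 17.1, 6.41 and 9.51 CPM in B patches. At 100 nuclei both were read in T libraries 1 and 2 and in no B library. Cd226, an adhesion receptor of T and NK cells, had 4 of its 6 regions in the set, summing to 136, 151, 101, 109.7 and 134 CPM in T patches, against 31.4, 6.97, 16.1, 13.7 and 13.6 CPM in B patches.

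Kinases and adaptors below the receptor had 15 of 124 regions in the set (12.1%), among them regions at Cblb, Fyb, Lcp2, Prkcq, Skap1 and Txk, and 6 in the mirror set. Their median log2 fold change in patches was 0.33, and at 100 nuclei 63 had a higher mean in T and 43 a lower one. Prkcq, the protein kinase C isoform of the T cell synapse, had 6 of its 11 regions in the set. They summed to 203, 486, 243, 216 and 214 CPM in T patches, against 64.2, 35.9, 54.6, 87.1 and 30.2 CPM in B patches, with library 2 well above the other T patches. At 100 nuclei the sums were 325, 166, 0 and 0 CPM in T libraries, against 101, 0, 2.51 and 0 CPM in B libraries, so the groups overlapped. The region over the Txk start held 97.8, 96.97, 63.4, 60.6 and 61.5 CPM in T patches, against 27.99, 6.44, 15.8, 34.1 and 14.1 CPM in B patches. It held 214 and 292 CPM in T libraries 1 and 2 of 100 nuclei and no read in the others. Lcp2 had 1 region inside the gene (chr11:34064011-34064376) with 92.9, 59.2, 78.2, 46.1 and 40.8 CPM in T patches, against 27.2, 2.15, 0.528, 11.6 and 15.9 CPM in B patches.

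Cytotoxic, effector and regulatory genes had 5 of 26 regions in the set (19.2%), at Prf1, Fasl and Il21, and 0 in the mirror set. Their median log2 fold change in patches was 0.96, and at 100 nuclei 11 had a higher mean in T and 8 a lower one. The region over the start of Prf1, the pore-forming protein of killer cells, held 62.4, 43.5, 56.2, 66.9 and 50.3 CPM in T patches, against 23.9, 22.5, 3.17, 5.24 and 13.02 CPM in B patches. It held 165, 203, 405 and 0 CPM in T libraries of 100 nuclei, against 0, 0, 0 and 58.1 CPM in B libraries. Its second region, 8.54 kb after the start, had reads in all T patches (28.6, 31.9, 53.1, 47.4 and 43.04 CPM), against 5.26, 7.51, 8.97, 0 and 7.03 CPM in B patches, and in no library of 100 nuclei.

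Homing and cytokine receptors had 16 of 98 regions in the set (16.3%), at Cxcr6, Ifngr1, Il18r1, Il21r, Il2rb, Il6ra, Il6st, Itgb7 and S1pr1, and 4 in the mirror set. Their median log2 fold change in patches was 0.48. At 100 nuclei 41 of them had a higher mean in T and 48 a lower one, close to the 44.1% higher in T over all nuclear regions with reads. Of the 16 in the set 11 were higher in T there and 5 lower. S1pr1, the receptor by which lymphocytes leave lymphoid organs, had 3 of its 12 regions in the set. The strongest (chr3:115682557-115683159) had a narrow gap, with 109, 136, 113, 117 and 102 CPM in T patches, against 66.7, 39.7, 56.2, 98.1 and 82.1 CPM in B patches. Summed, the 3 held 133, 178, 413 and 1332 CPM in T libraries of 100 nuclei, against 10.3, 37.5, 30.2 and 45.9 CPM in B libraries, without overlap. All 3 regions of Il2rb, the beta chain of the receptors for interleukins 2 and 15, were in the set, summing to 179, 205, 111, 147 and 117 CPM in T patches, against 64.4, 61.2, 57.8, 32.6 and 38.4 CPM in B patches. At 100 nuclei its sums overlapped, with 93.9, 226, 0 and 0 CPM in T libraries and 166, 47.5, 166 and 6.11 CPM in B libraries. The region of the Il21r gene (chr7:125635497-125635817) held 73.9, 147, 132, 103 and 81.04 CPM in T patches, against 34.4, 47.7, 51.7, 29.99 and 27.7 CPM in B patches. Over all 6 lists, 55 of the 80 regions in the set had a higher mean in T at 100 nuclei, 15 a lower one and 10 no reads.

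Clusters of regions were also found at genes outside these lists. The 862 regions with a gene fell on 693 genes, of which 32 had 3 or more, 83 had 2 and 578 had 1. The 32 genes held 118 regions of the set out of 258 regions in all, and 3 of them also held a region of the mirror set. After Tcf7 and Prkcq came Bach2, Inpp4b and Thy1 with 5 each, then Atp10a, Cd226, Cox10, Foxp1, Gm52008, Gramd3, Itgb3 and Prkch with 4. Bach2, a repressor that restrains effector differentiation of T cells and is also prominent in B cells, had 5 of its 22 regions in the set and 0 in the mirror set. The 5 summed to 184, 394, 218, 252 and 226 CPM in T patches, against 61.4, 19.9, 37.99, 29.99 and 38.7 CPM in B patches. Inpp4b, a phosphoinositide phosphatase, also had 5 of 22 regions in the set but 1 in the mirror set, and the 5 summed to 84.7, 118, 113, 157 and 99.5 CPM in T patches, against 14.1, 15.02, 22.95, 6.41 and 8.89 CPM in B patches. Foxp1, a forkhead factor of quiescent T cells and of B cells, had 4 of its 24 regions in the set and 1 in the mirror set. Those 4 summed to 73.9, 179, 108, 121 and 132 CPM in T patches, against 41.1, 24.7, 22.2, 11.1 and 22.1 CPM in B patches.

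At 100 nuclei the summed mean was higher in T for 29 of the 32 genes and lower for 2, and 1 had no reads. For 6 genes all 4 T libraries lay above all 4 B libraries: Tcf7, Gramd3, Itpk1, S1pr1, Setd4 and Trim33. Summed over all their regions, 18.8% of the 32 genes had all T libraries above all B libraries, against 1.22% of the 3121 genes with 3 or more nuclear regions. Gramd3 held 179, 349.5, 199 and 1568 CPM in T libraries, against 0 CPM in all 4 B libraries. Trim33, a ubiquitin ligase of the TGF-beta pathway, held 306, 173, 282 and 318 CPM in T libraries, against 0 CPM in all 4 B libraries. Smad7, an inhibitor of the same pathway, had 3 regions that summed to 179, 304, 227, 226 and 155 CPM in T patches, against 53.5, 59.02, 43.01, 41.9 and 64.1 CPM in B patches, but at 100 nuclei its sums overlapped, with 70.8, 117, 0 and 0 CPM in T libraries and 0, 0, 302 and 39.7 CPM in B libraries.

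The regions with the widest gap held next to no reads in B patches. Ranked by log2 of (lowest T patch CPM + 1) over (highest B patch CPM + 1), the first 6 comprised 3 without a gene and regions inside Fam78a, Sema4f and Ggact. The first (chr15:60112074-60112228) held 36.8, 31.9, 23.5, 50.1 and 38.6 CPM in T patches and no read in any B patch, and no library of 100 nuclei had a read in it. The Fam78a region (chr2:32047472-32047581) held 38.7, 30.8, 24.9, 45.4 and 34.4 CPM in T patches, against 0, 0, 0, 0 and 0.207 CPM in B patches. The third, 76.0 kb from Rasgrp1, which activates Ras below the T cell receptor, held 22.3, 24.4, 29.5, 21.2 and 39.7 CPM in T patches, against 0, 0, 0, 0 and 0.207 CPM in B patches (chr2:117418845-117419037).

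The regions with the highest counts were of another kind. The 6 with the highest mean in T patches included regions at Psmb9, Ssbp2, Cdon, Cacna1a and Kri1. None of the 6 lay at a gene on a list used here, and all 6 were open in B patches too. The region over the start of Psmb9, an immunoproteasome subunit, held 265, 375, 237, 249 and 232 CPM in T patches, against 229.9, 123, 222, 126 and 181 CPM in B patches. It did not separate at 100 nuclei, where it held 462, 537, 243 and 33.1 CPM in T libraries and 217, 647, 101 and 214 CPM in B libraries. CPM were not divided by the width of a region, and these are among the wider ones.

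At the limits of the rule the choice was fine-grained. Just inside the mean limit lay regions at Acsl4, Kcnj15 and Cog6 with means of 10.4, 10.4 and 10.6 CPM in T patches, and just outside lay regions at Zbtb42 and Dipk1a and one without a gene with 9.65, 9.58 and 9.56 CPM. Just inside the first limit, a region at Tspan5 had a lowest T library of 19.23 CPM and a highest B library of 19.22 CPM. Just outside it, a region at Ahdc1 had a lowest T library of 60.55 CPM and a highest B library of 60.56 CPM, and regions at Agxt2 and Zswim6 had no read in any B patch but none in at least 1 T patch.

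Few of the regions lay on gene starts. Of the 956 regions 16.3% lay within 1 kb of a protein-coding gene start, 46.4% inside a gene, 27.4% outside but within 50 kb of a gene and 9.83% farther away. Over all 27392 nuclear regions the shares were 40.6, 33.4, 18.1 and 7.85%. The mirror set was close to the T set, with 14.5, 44.8, 27.5 and 13.3%, so both directions held few gene starts. The median width of the regions was 215 bp, against 235.5 bp in the mirror set, 200 bp over all nuclear regions and 262 bp over nuclear regions with a mean of 10 CPM or more in patches. Of the set, 16.5% had another region of it within 10 kb and 35.7% within 50 kb, against 22.2 and 38.4% for the mirror set. By chromosome the set held between 1.42% of the regions (X) and 5.37% (15), and 5.04% of those on chromosome 9, which carries Thy1, the CD3 genes and Ets1.

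**Figure D4:**
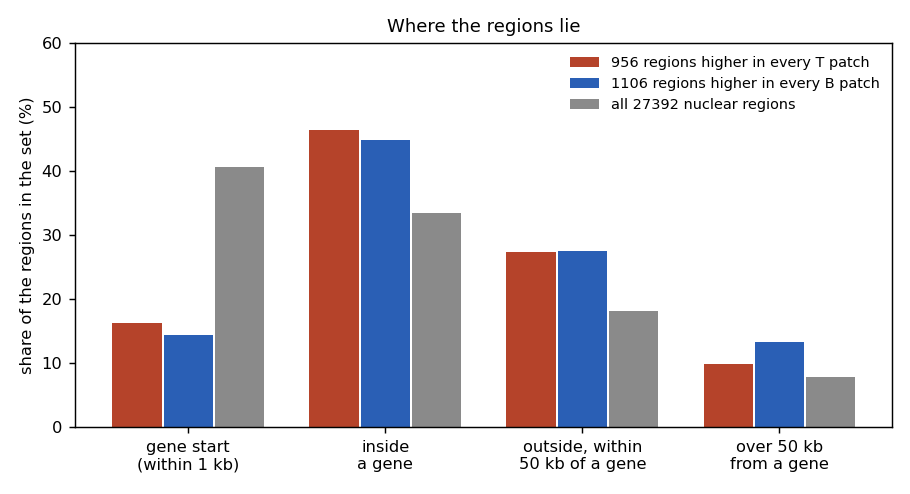
Share of regions (y axis, percent) within 1 kb of a gene start, inside a gene, outside but within 50 kb of a gene, and farther away (x axis), for the 956 regions fully higher in T patches, the 1106 fully higher in B patches and all 27392 nuclear regions. Gene starts make up 16.3% and 14.5% of both chosen sets, against 40.6% of all regions.

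Region by region, the T direction was seen again in most regions at 100 nuclei. Of the 956, 623 had a higher mean CPM in T, 192 a lower one and 141 no read in any of the 8 libraries, so 76.4% of the 815 with reads were higher in T. Over all nuclear regions with reads at 100 nuclei the same share was 44.1%, and over the mirror set it was 17.1%. Reads in T libraries alone were found in 371 regions of the set and in B libraries alone in 68. With T libraries 3 and 4 left out the share was 77.1%. By place it was 66.0% at gene starts, 75.1% inside genes, 83.1% outside within 50 kb and 84.2% farther away, against 44.5, 44.1, 44.6 and 39.6% of all nuclear regions in those places. It was 81.5% for regions with a mean under 5 CPM in B patches and 66.0% for those at 20 CPM or more. These shares describe the regions, which share libraries, and carry no test.

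**Figure D5:**
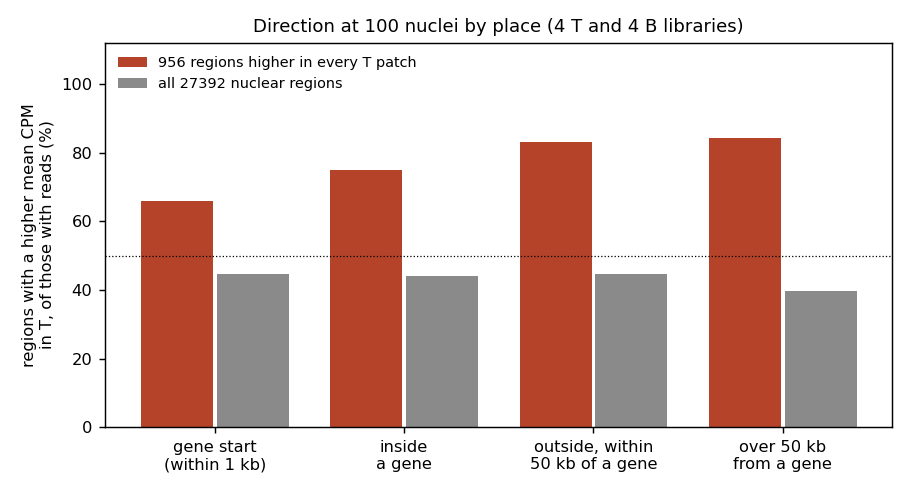
Share of regions with a higher mean CPM in T than in B at 100 nuclei (y axis, percent of those with reads) by place (x axis), for the 956 regions fully higher in T patches and all 27392 nuclear regions; the dotted line marks 50%. The set lies between 66.0 and 84.2% and all regions between 39.6 and 44.6%.

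No single region passed the test at 100 nuclei. edgeR's quasi-likelihood test called 0 of the 953 regions of the set that were tested, as it called 0% of nuclear regions (Benjamini-Hochberg adjusted p under 0.05). Of these 953, 814 had reads at 100 nuclei. DESeq2 gave a p-value for 539 regions of the set and also called 0. At an unadjusted p under 0.05 edgeR had 68 regions of the set higher in T and 10 lower, against 1.45% of all tested regions higher and 4.04% lower. All 4 T libraries lay above all 4 B libraries in 7 regions of the set, and all B above all T in 2, against 0.161% and 0.971% of nuclear regions. The 7 were at Tcf7, Gramd3, Trim33, Ccnd2, C2cd5 and Als2cl and at the region 101 kb from S1pr1.

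The 5 smallest p-values belonged to regions at Als2cl, Thada, Fyco1, Gramd3 and Gm52008. The Als2cl region (chr9:110896638-110897035) held 243, 254, 184 and 236 CPM in the 4 T libraries, against 0 CPM in all 4 B libraries. Its edgeR p-value was 0.00204, and 0.356 after Benjamini-Hochberg adjustment. In patches it held 147, 60.4, 129, 131 and 107 CPM in T, against 16.5, 0, 0, 4.95 and 9.92 CPM in B. The Thada region (chr17:84306179-84306503) held 152, 161, 0 and 612 CPM in the 4 T libraries, with 0 CPM in all B libraries. The other three also had no read in any B library of 100 nuclei, and each was read in at least 3 of the 4 T libraries. The direction held in 4 of 4 T libraries for Als2cl and Gramd3.

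Some regions went the other way at 100 nuclei. The 4 with the largest excess in B included regions at Dnajc5, Rnf10 and Rhoh. The Dnajc5 region (chr2:181520217-181520656) held 30.3, 0, 0 and 0 CPM in T libraries of 100 nuclei, against 424, 365, 168 and 58.1 CPM in B libraries, although T patches held 100.1, 105, 97.6, 98.2 and 85.5 CPM, against 77.4, 22.5, 23.2, 76.9 and 54.98 CPM in B patches. A region near Rhoh, a GTPase of blood cells needed for T cell receptor signalling, held no read in any T library of 100 nuclei, against 135, 94.97, 60.4 and 73.4 CPM in B libraries (chr5:65858070-65858263). Its patch values were 39.1, 69.7, 42.2, 34.6 and 42.2 CPM in T, against 14.8, 0, 24.01, 26.2 and 14.9 CPM in B. The difference between capture sizes was not tested.

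edgeR called 250 of the 953 tested regions of the set higher in T patches, against 1.05% of all tested regions. The same contrast chose the set, so nothing is read from this count. It changed when a library was left out: without T patch library 1, 3, 4 or 5 it was 126, 122, 125 or 141, and without library 2 it was 221. Without B patch library 1, 3 or 4 it was 141, 142 or 143, without library 5 174 and without library 2 290. Each such fit also rested on fewer libraries, so these counts cannot show dependence on a particular library. The rule was also applied without a library, to see on which side that library fell. The 5 T patch libraries, each left out in turn, lay above all B patches in 81.9, 70.1, 84.5, 82.2 and 78.0% of the regions so chosen, against 19.3 to 26.2% of all nuclear regions. The 5 B patch libraries lay below all T patches in 83.1, 75.9, 87.1, 84.7 and 84.6%, against 13.0 to 24.5%. Library 2 was the lowest of its group both times. These too are patch values. Regions already apart in the other libraries differ from all regions, so the shares over all regions are no chance level. Nothing is supported with this comparison. Without both libraries numbered 2 the rule took 1765 regions, 941 of them in the set.

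B cell identity genes had no region in the set, and the shorter lists of other cell types are read beside the 3.49% of all nuclear regions that were in it. Of 106 regions at B cell identity genes 0 were in the set and 48 in the mirror set. The summed share of those regions was 0.112 to 0.165% of nuclear counts in T patches, against 0.463 to 0.588% in B patches. None of the regions of the lists for dendritic cells (23), macrophages and monocytes (12), NK and innate lymphoid cells (15), erythroid cells and megakaryocytes (4) or germinal centre and plasma cells (25) was in the set. T zone stroma and endothelium had 2 of 8 (25%), both inside Pecam1, an adhesion molecule of endothelium that is also found on lymphocytes. That list had 1 region in the mirror set as well. Cdh5, another marker of these cells, had 2 regions, 0 in the set and 1 in the mirror set. The Pecam1 regions held 66.3, 69.7, 59.3, 111 and 97.8 CPM (chr11:106665441-106665638) and 124, 83.6, 114, 52.5 and 65.4 CPM (chr11:106674593-106674902) in T patches, against 19.5, 27.9, 31.9, 8.74 and 44.2 and 35.1, 38.6, 50.4, 30.9 and 39.5 CPM in B patches. The stroma list took 0.0191 to 0.0314% of counts in T patches, against 0.0124 to 0.0199% in B patches, so the ranges overlapped; Ccl19, Ccl21a, Pdpn, Pdgfra, Col1a1 and Col3a1 had no assigned region. The NK list took 0.0380 to 0.0690% in T patches, against 0.0289 to 0.0403% in B patches. Other lists were lower in T patches, without overlap. Dendritic cells took 0.0318 to 0.0390% in T patches, against 0.0410 to 0.0561% in B patches. Macrophages and monocytes took 0.0108 to 0.0175%, against 0.0190 to 0.0296%. The part of these cells in the set was not tested. Of 40 regions at housekeeping genes 2 were in the set, at Actb and Ywhaz, and the Actb region held 111, 96.97, 170.4, 98.2 and 132 CPM in T patches, against 77.6, 17.2, 64.9, 30.6 and 59.9 CPM in B patches.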

How the data were processed

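The authors deposited 1 table of raw counts per region for 18 libraries of spleen nuclei on build mm10, and the counts were used as deposited. CPM were computed without the 4 mitochondrial regions. The tools named, per the submitters' processing notes, were MACS2 2.2.7.1, Bowtie2 2.4.5, SAMtools 1.14, R 4.1.0, Trimmomatic 0.36, Picard, bcl2fastq 2.20 and deepTools 3.5.2. The way regions were called, duplicates treated and reads shifted is not stated in the sources used here, nor is whether starts count from 0 or 1. The regions and the gene lists were chosen with earlier results of these data known. Genes came from RefSeq tables of GRCm38.p6, and 92.1% of nuclear regions had one. Tests were quasi-likelihood tests of edgeR 4.0.16 (under R 4.3.3, with TMM factors and Benjamini-Hochberg adjustment over all regions tested) on 25712 regions past filterByExpr with a minimum count of 10, fitted on patches and on 100 nuclei separately. DESeq2 1.42.0, other scalings and filters, a replicate block, a joint fit and each library left out were alternatives. Identical columns numbered 0.

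Named regions were the 6 widest gaps, the 6 highest means, up to 2 per T list by mean, genes with 3 or more regions, the 5 smallest p-values and the 4 largest excesses in B at 100 nuclei, 3 on each side of each limit, and all regions of the set at genes of other cell types; a part of these is printed. The regions at Lef1, Themis, Bcl11b, Lcp2, the CD3 and CD8 genes, the T cell receptor beta locus and Ets1, and the 7 regions whose groups did not overlap at 100 nuclei, were named after their values were seen. The same holds for the promoter windows shown.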

Additional observations from a re-analysis of the deposited data

Results flagged for a closer look

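Among 110 groups of 5 or 4 libraries examined, 14 had 1 library far from the others. The limit used flags about 1 in 20 groups of independent, normally spread values. The groups here share libraries and some lie near 0, so 1 in 20 is no chance level for them. Of the 9 flagged T patch groups, T patch library 2, the shallowest, stood alone in 7. It was high in single regions at Psmb9 (375 CPM, against a group median of 249), Cacna1a (273, median 177), Prkcq (167, median 64.9) and near Rhoh (69.7, median 42.2), and in the sums over regions of the set at Prkcq (486 CPM, median 216), Thy1 (289, median 174) and Cox10 (277, median 158). T patch library 4 stood alone at Ssbp2 (298 CPM, median 171) and Fyco1 (90.5 CPM, median 38.1). In B patches, library 2 was low at Kri1 (18.2 CPM, median 118), library 3 was high near Tcf7 (42.5 CPM, median 16.3), and library 5 alone or nearly alone had reads at Ggact (3.72 CPM), at Fam78a (0.207 CPM) and at the region 76.0 kb from Rasgrp1 (0.207 CPM). The part of depth in these values was not tested.

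At 2 regions the direction in patches was turned round at 100 nuclei, with every library on the other side. At Dnajc5 T libraries of 100 nuclei averaged 7.59 CPM and B libraries 254 CPM. Near Rhoh T libraries of 100 nuclei had no read and B libraries averaged 90.8 CPM. The difference between capture sizes was not tested.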

How the results depend on the processing

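In patches 250 regions of the set were called by edgeR, and DESeq2 called 718, a joint fit with the libraries of 100 nuclei 0 (299 at an unadjusted p under 0.05), and single libraries left out 122 to 290. Over all nuclear regions edgeR with TMM gave 269 higher and 312 lower calls, DESeq2 989 and 1127, and edgeR with library size alone 362 and 232. With library size alone the median of all regions was 0.19 in place of 0.03 on the log2 scale. At 100 nuclei 0 were called in each fit made except the joint fit, where the spread was shared with the deeper patches. It called 345 of the 953 tested regions of the set, with higher and lower in T counted together. Those at Als2cl, Thada, Fyco1, Gramd3 and Gm52008 were among them. Of all 25708 tested nuclear regions the joint fit called 2330 higher in T and 4621 lower, so calls were common there and mostly lower in T. The rule took 1097 to 1342 regions with 1 library left out and, as an alternative chosen after seeing the data, 1765 without both patch libraries numbered 2. The difference in share at 100 nuclei was 2.80 percentage points, 2.63 to 2.89 with a library left out, and 2.08 with mitochondrial counts in the total; counted as regions with at least 1 read it was 15.7 points, and the groups then overlapped. The share of regions higher in T at 100 nuclei ran from 67.9 to 80% with a library left out.

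With the replicate number as a block 89 regions of the set were called in patches and 0 at 100 nuclei (7 there at an unadjusted p under 0.05, against 78 without the block). Over all nuclear regions the block fit called 93 higher and 118 lower in patches. Whether equal numbers pair the libraries was not settled. Same-numbered patch libraries correlated by at most 0.0324 in their deviations from the group means, but a low correlation over noisy counts cannot exclude a pairing. Both patch libraries numbered 2 had reads in the fewest nuclear regions of their group (74.2% in T and 75.4% in B). Neither fit is preferred on these grounds. A count of 0 allowed at most 1.74 CPM in a patch library and 12.4 CPM in a library of 100 nuclei.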
